A study of Mus musculus with 14 samples.

Results

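The genes described here were 10 transcription factors of the intestinal epithelium, Hnf4a, Hnf4g, Cdx1, Cdx2, Klf4, Klf5, Elf3, Gata4, Gata6 and Prdm1, selected by symbol from the 18781 genes of the deposited expression table. RNA had been sequenced from mouse small intestinal organoids, epithelial cultures that grow from intestinal stem cells, kept in Intesticult medium without treatment. WT organoids (n = 4) carried floxed alleles of both Atg16l1 and Rnaseh2b and no Cre (ATG16L1flox/flox_RNaseH2Bflox/flox). Rnaseh2bΔIEC organoids (n = 2, RNaseH2Bflox/flox_VillinCre+/-) carried a deletion in the gene for a subunit of RNase H2, the enzyme that removes ribonucleotides from DNA. Atg16l1ΔIEC organoids (n = 4, ATG16L1flox/flox_VillinCre+/-) carried a deletion in the gene for a protein needed for autophagosome formation. Atg16l1/Rnaseh2bΔIEC organoids (n = 4, ATG16L1flox/flox_RNaseH2Bflox/flox_VillinCre+/-) carried both deletions. Cre was driven by the Villin promoter, which is active throughout the intestinal epithelium. The control carries no Cre, so any effect of Cre itself cannot be told apart from that of the deletions. The ages of the donor mice could not be tied to single organoid libraries from the sources used here, and the authors left out further Rnaseh2bΔIEC samples because of their read counts.

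The HNF4 nuclear receptors and the CDX homeobox proteins bind together at the enhancers of enterocyte genes and keep the epithelium intestinal. KLF4 marks differentiating and goblet cells, whereas KLF5 sustains dividing crypt cells. ELF3 is an ETS factor restricted to epithelia that takes part in enterocyte and goblet cell differentiation, GATA4 sets the identity of the proximal small intestine, GATA6 is found along its whole length, and PRDM1 (Blimp-1) is a repressor known for its high level before weaning.

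Values are the normalised log2 values that the authors deposited, with library medians between 7.57 and 7.65, and the read depth behind them is unknown. A gene was called when its limma p-value, adjusted over the 12802 genes whose mean reached 3.32 (10 on the linear scale), was under 0.05. All 10 factors passed that filter. By the library names, WT libraries were in lane 1, Atg16l1ΔIEC and Rnaseh2bΔIEC libraries in lane 2, and Atg16l1/Rnaseh2bΔIEC libraries 1 and 2 in lane 2 and 3 and 4 in lane 1. Libraries 1 and 2 of a genotype, and 3 and 4, shifted together relative to their genotype (correlations across genes of 0.31 to 0.849). These pairs also differed in Xist and Y-linked genes. In 8 libraries, numbers 1 and 2 of WT, Rnaseh2bΔIEC and Atg16l1/Rnaseh2bΔIEC and numbers 3 and 4 of Atg16l1ΔIEC, Xist lay between 7.56 and 7.80 (male pattern), and in the other 6 between 13.24 and 13.78 (female pattern). Both Rnaseh2bΔIEC libraries were therefore of 1 pair and of the male pattern. The labels do not say whether libraries came from separate mice, and p-values measure the spread between these libraries. Each call is therefore also given with the pairs correlated (consensus correlation 0.645) or with lane as a covariate where that ends it. The lane term is estimated from the Atg16l1/Rnaseh2bΔIEC libraries alone, in which lane, pair and sex cannot be told apart.

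Both deleted genes were lower in every library with their deletion than in every library without it, but less so in the double knockout. Rnaseh2b averaged 8.54 in WT and 8.62 in Atg16l1ΔIEC, 7.18 in Rnaseh2bΔIEC and 7.81 in Atg16l1/Rnaseh2bΔIEC organoids. Atg16l1 averaged 9.46 in WT and 9.52 in Rnaseh2bΔIEC, 6.93 in Atg16l1ΔIEC (6.74 to 7.35) and 8.39 in Atg16l1/Rnaseh2bΔIEC organoids (8.14 to 8.57). The double knockout thus kept more of both transcripts than the single knockouts, and the part of this in its differences from them and in the interaction was not tested. The epithelial label was checked against markers. Epcam, an epithelial adhesion protein, lay between 14.64 and 14.76 in every library. Summed levels of 7 epithelial markers were between 17.12 and 17.31, while those of the 8 stromal, muscle and endothelial markers of 12 in the table were between 7.68 and 8.39 and those of 7 immune markers between 6.15 and 6.70. Of these, the T cell gene Cd3e was at most -1.31, the leukocyte gene Ptprc at most 0.53 and the collagen gene Col1a2 at most -1.31. In these bulk samples, fewer cells of a type and less RNA per cell cannot be told apart.

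Per kilobase of exon, Hnf4a had the highest level of the 10 factors in WT organoids, at a mean log2 value per kilobase of 12.47. Elf3 (11.50), Cdx2 (11.41), Cdx1 (11.30), Gata4 (10.50), Hnf4g (9.64), Klf5 (8.97), Gata6 (8.63) and Klf4 (8.59) followed on the same scale, and Prdm1 was far below them at 3.63. Of neighbours in this order, only Gata6 and Klf4 overlapped in their WT libraries (8.60 to 8.66 and 8.36 to 8.77). Prdm1 was also the only factor below the median gene of the table, at the 43.7th percentile of the mean deposited values, while Hnf4a was at the 99.7th.

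**Figure D1:**
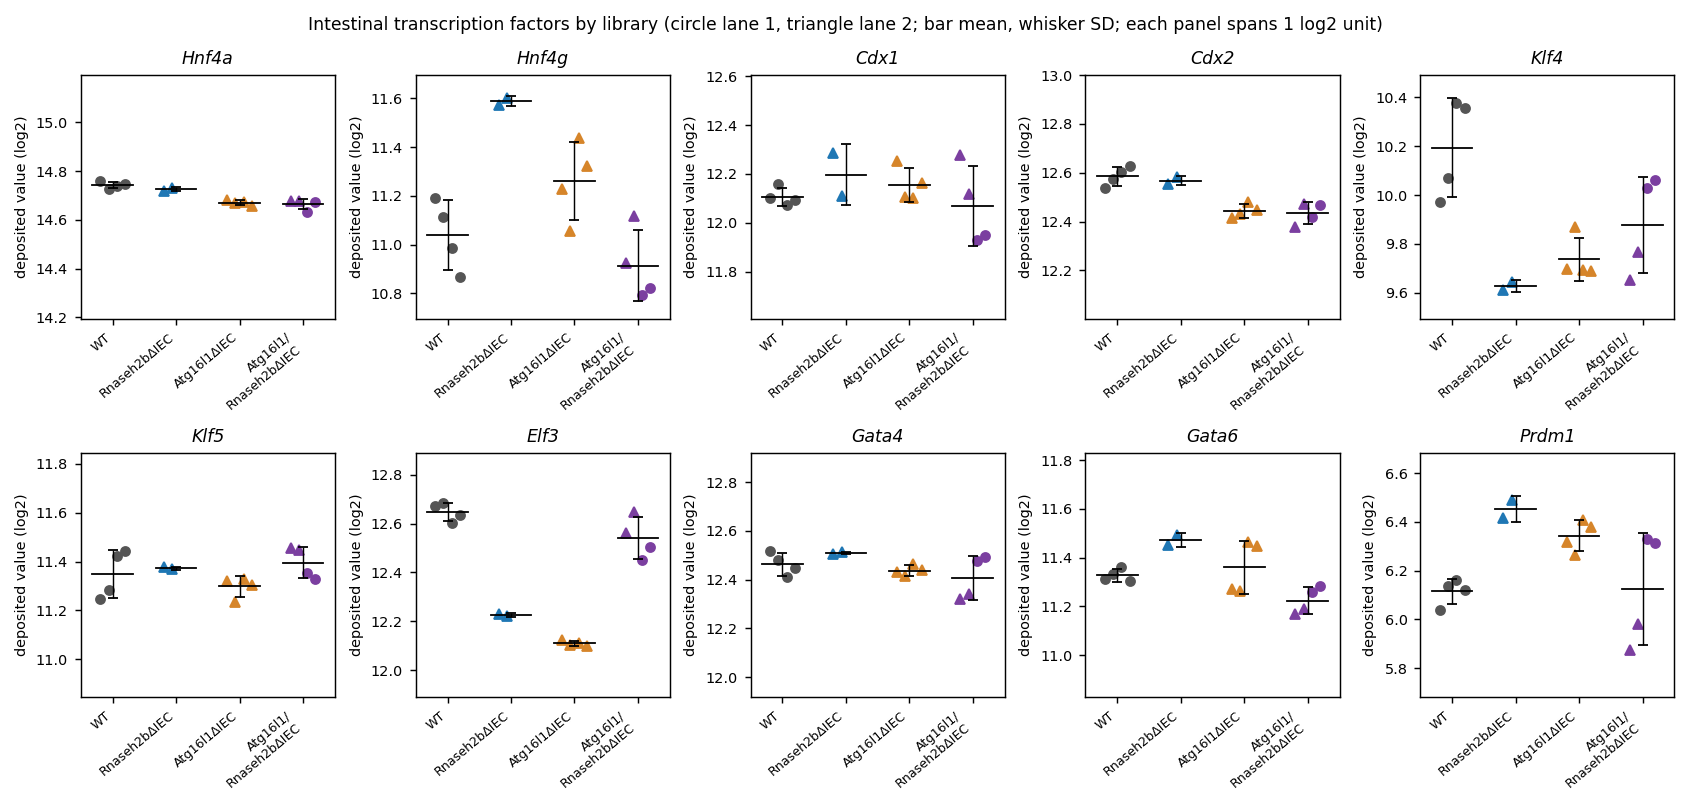
Deposited log2 value of each factor in each of the 14 libraries by genotype, with circles for lane 1, triangles for lane 2, the mean as a line and the SD as a whisker, every panel spanning 1 log2 unit. Elf3 lies lower in all Rnaseh2bΔIEC and Atg16l1ΔIEC libraries (12.10 to 12.23) than in WT (12.60 to 12.68), and Klf4 is split by pair within WT and within Atg16l1/Rnaseh2bΔIEC organoids.

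Elf3 and Klf4 were lower than in WT in both single knockouts, Hnf4g and Prdm1 were higher in Rnaseh2bΔIEC organoids, and Cdx2 was lower in Atg16l1ΔIEC organoids. Against WT, 4 of the 10 factors were called in Rnaseh2bΔIEC organoids, where 26.7% of all genes tested were called, and 3 of 10 in Atg16l1ΔIEC organoids, where the share was 19.1%. In the former 2 were higher and 2 lower (14.4% and 12.3% of all genes), and in the latter 0 were higher and 3 lower (8.73% and 10.4%). In Atg16l1/Rnaseh2bΔIEC organoids, 1 factor (Cdx2, lower) was called beside 16.1% of all genes, 8.1% higher and 8.01% lower. These shares of 10 genes were near their backgrounds, and no factor differed by 1 log2 unit or more in any comparison. The median log2 difference of the 10 factors from WT was 0.04 in Rnaseh2bΔIEC, -0.04 in Atg16l1ΔIEC and -0.09 in Atg16l1/Rnaseh2bΔIEC organoids, beside medians of 0.00 over all genes tested. The libraries of the genotypes did not overlap for 5 factors in Rnaseh2bΔIEC (55.5% of all genes tested), 5 in Atg16l1ΔIEC (24.6%) and 3 in Atg16l1/Rnaseh2bΔIEC against WT organoids (22.3%). For the double knockout they did not overlap for 8 factors against Rnaseh2bΔIEC (49.9%) and 1 against Atg16l1ΔIEC organoids (23.9%), and for 8 factors between the single knockouts (37.8%).

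The double knockout differed from each single knockout in Elf3, Hnf4g and Gata6. Against Rnaseh2bΔIEC organoids, 5 of the 10 factors were called in Atg16l1/Rnaseh2bΔIEC organoids (25.5% of all genes tested): Elf3 was higher, and Hnf4g, Prdm1, Gata6 and Cdx2 were lower. Against Atg16l1ΔIEC organoids, 3 of 10 were called (25.1%): Elf3 was higher, and Hnf4g and Gata6 were lower. Between the single knockouts, which share a lane, 0 of 10 factors passed limma's adjusted threshold (6.81% of all genes, 4.34% higher and 2.47% lower in Rnaseh2bΔIEC organoids), while 3 (Hnf4g, Cdx2 and Elf3) had an unadjusted p under 0.05, and the same 3 were called with lane as a covariate but not within lane 2 alone (adjusted p from 0.0688 to 0.0778). These comparisons share libraries and are not independent of each other.

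**Figure D2:**
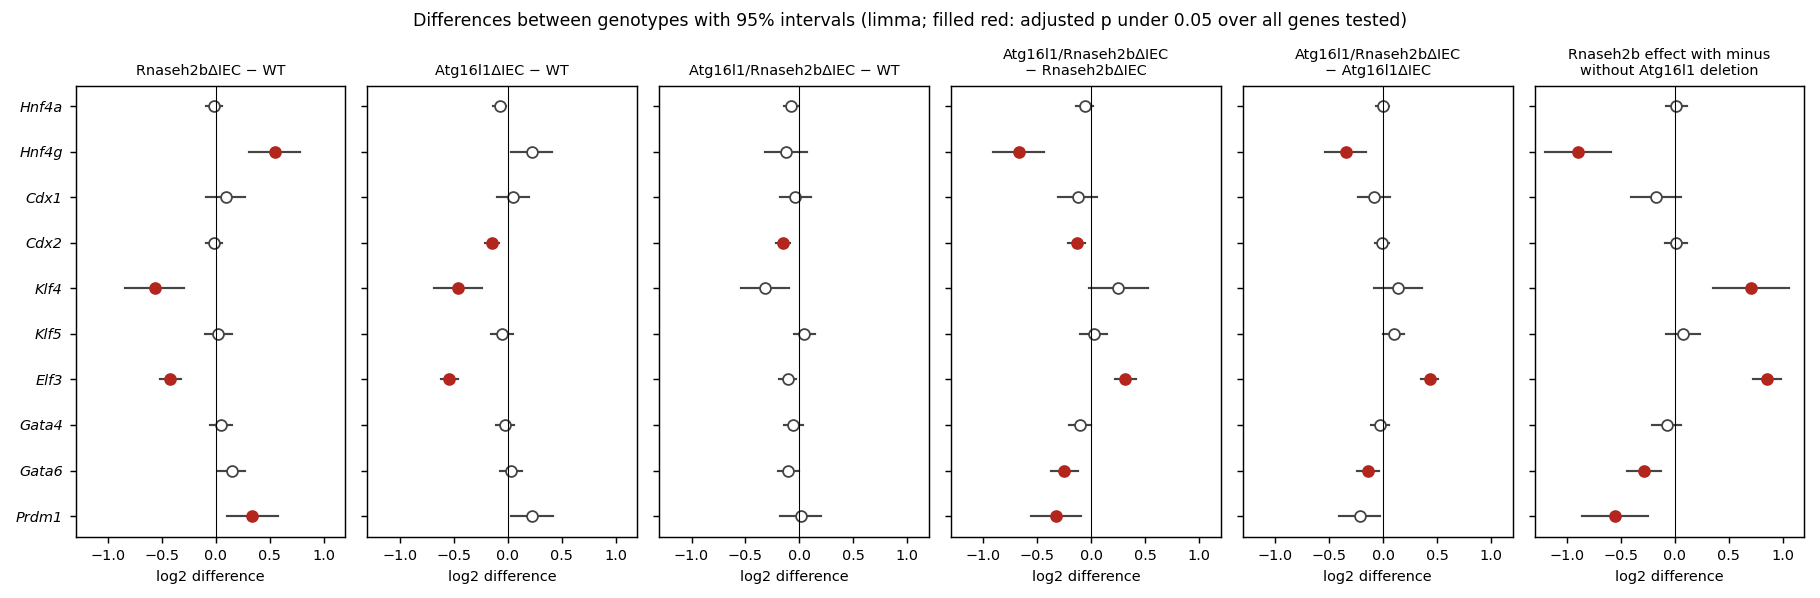
Log2 difference of each factor with its 95% interval in 5 comparisons of genotypes and in the interaction of both deletions, filled red where the limma adjusted p was under 0.05. The largest differences from WT are those of Klf4 (-0.57) and Hnf4g (0.55) in Rnaseh2bΔIEC and of Elf3 (-0.54) in Atg16l1ΔIEC organoids.

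Hnf4a (ENSMUSG00000017950) encodes the main HNF4 receptor of the gut and is located at 163506808 to 163572910 of chromosome 2 (GRCm38). Its values were 14.76, 14.73, 14.74 and 14.75 in WT, 14.72 and 14.73 in Rnaseh2bΔIEC, 14.68, 14.67, 14.67 and 14.66 in Atg16l1ΔIEC and 14.68, 14.68, 14.63 and 14.67 in Atg16l1/Rnaseh2bΔIEC organoids. All 8 libraries with Atg16l1 deletion lay below all WT libraries. The difference was small, at -0.07 (95% interval -0.14 to -0.01, limma adjusted p = 0.0924) in Atg16l1ΔIEC and -0.08 (-0.14 to -0.02, limma adjusted p = 0.0814) in Atg16l1/Rnaseh2bΔIEC organoids. In both, the exact two-sided permutation test gave p = 0.0286, the smallest that 4 against 4 libraries allow, and the limma call was not made. That permutation test treats libraries as independent, although pairs shifted together. With the pairs correlated the limma adjusted p was 0.462 in Atg16l1ΔIEC and 0.454 in Atg16l1/Rnaseh2bΔIEC organoids. The antisense gene Hnf4aos overlaps the locus without sharing exons.

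Hnf4g (ENSMUSG00000017688), the intestinal paralogue of Hnf4a, lies on chromosome 3 from 3508030 to 3658052. It had values of 11.19, 11.11, 10.99 and 10.87 in WT, 11.57 and 11.60 in Rnaseh2bΔIEC, 11.23, 11.06, 11.44 and 11.32 in Atg16l1ΔIEC and 10.93, 11.12, 10.79 and 10.82 in Atg16l1/Rnaseh2bΔIEC organoids. Both Rnaseh2bΔIEC libraries were above every other library, and the other 3 genotypes overlapped. Hnf4g was 1.46-fold higher in Rnaseh2bΔIEC than in WT organoids (log2 difference 0.55, standard error 0.11, limma adjusted p = 0.00345). Its difference in Atg16l1ΔIEC organoids was 0.22 (95% interval 0.03 to 0.41, limma adjusted p = 0.0992) and in Atg16l1/Rnaseh2bΔIEC organoids -0.13 (-0.32 to 0.07, limma adjusted p = 0.35).

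With both deletions, Hnf4g was 1.60-fold lower than in Rnaseh2bΔIEC organoids (log2 difference -0.67, standard error 0.11, limma adjusted p = 0.00126) and 1.27-fold lower than in Atg16l1ΔIEC organoids (-0.35, standard error 0.09, limma adjusted p = 0.0147). The fall from the Rnaseh2bΔIEC level was called within lane 2 alone as well (-0.57, limma adjusted p = 0.012). With lane as a covariate, the rise over WT was 0.33 and not called (adjusted p = 0.167), and with the pairs correlated it was called (adjusted p = 0.0417). The difference from Atg16l1ΔIEC organoids was not called with lane as a covariate (adjusted p = 0.0807), with the pairs correlated (adjusted p = 0.115) or without Atg16l1ΔIEC replicate 3 (-0.29, adjusted p = 0.0511). In libraries of the male pattern only, the pair means were 11.15 in WT, 11.59 in Rnaseh2bΔIEC, 11.38 in Atg16l1ΔIEC and 11.02 in Atg16l1/Rnaseh2bΔIEC organoids, the same order as over all libraries. Of these pairs the WT one was in lane 1 and the others in lane 2, so differences from WT and lane cannot be told apart among them.

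Cdx2 (ENSMUSG00000029646), which specifies intestinal against gastric identity, lies on chromosome 5 from 147300805 to 147307270. WT values were 12.54, 12.58, 12.60 and 12.63 and Rnaseh2bΔIEC values 12.55 and 12.58, whereas Atg16l1ΔIEC organoids had 12.41, 12.43, 12.48 and 12.45 and Atg16l1/Rnaseh2bΔIEC organoids 12.38, 12.47, 12.42 and 12.47. All 8 libraries with Atg16l1 deletion were thus below all 6 without it. The log2 difference from WT was -0.14 in Atg16l1ΔIEC (standard error 0.03, limma adjusted p = 0.00592) and -0.15 in Atg16l1/Rnaseh2bΔIEC organoids (standard error 0.03, limma adjusted p = 0.00655), 1.10-fold and 1.11-fold lower. Cdx2 was the only factor called in Atg16l1/Rnaseh2bΔIEC against WT organoids, and that call held within lane 1 alone (-0.14, adjusted p = 0.0443). It was not made with the pairs correlated (adjusted p = 0.167), and in Atg16l1ΔIEC organoids it was not made with pairs correlated (adjusted p = 0.155) or with lane as a covariate (-0.13, adjusted p = 0.121).

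Between Rnaseh2bΔIEC and WT organoids Cdx2 differed by -0.02 (95% interval -0.10 to 0.06). The effect of Rnaseh2b deletion on Cdx2 differed by 0.01 between organoids with and without Atg16l1 deletion (95% interval -0.09 to 0.11, limma adjusted p = 0.918). Against Rnaseh2bΔIEC organoids it was lower by -0.13 in Atg16l1/Rnaseh2bΔIEC organoids (limma adjusted p = 0.0171), a call that was lost without Rnaseh2bΔIEC replicate 1 (adjusted p = 0.0734) or 2 (adjusted p = 0.157), with pairs correlated (adjusted p = 0.222) and narrowly within lane 2 (adjusted p = 0.0502).

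Cdx1 (ENSMUSG00000024619), its paralogue, had values of 12.10, 12.16, 12.07 and 12.09 in WT, 12.29 and 12.11 in Rnaseh2bΔIEC, 12.25, 12.11, 12.10 and 12.16 in Atg16l1ΔIEC and 12.28, 12.12, 11.93 and 11.95 in Atg16l1/Rnaseh2bΔIEC organoids. The genotypes overlapped throughout. Cdx1 was not called in any comparison with 1 mean per genotype, and its difference from WT was 0.09 (95% interval -0.09 to 0.27) in Rnaseh2bΔIEC, 0.05 (-0.10 to 0.20) in Atg16l1ΔIEC and -0.04 (-0.18 to 0.11) in Atg16l1/Rnaseh2bΔIEC organoids. Within lane 1 the last difference was -0.17 and called (limma adjusted p = 0.0233), which rests on Atg16l1/Rnaseh2bΔIEC libraries 3 and 4.

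Klf4 (ENSMUSG00000003032), a zinc-finger factor of differentiated and goblet cells, lies on chromosome 4 from 55527143 to 55532466. It had values of 9.97, 10.07, 10.38 and 10.36 in WT, 9.61 and 9.64 in Rnaseh2bΔIEC, 9.70, 9.87, 9.69 and 9.69 in Atg16l1ΔIEC and 9.65, 9.77, 10.03 and 10.06 in Atg16l1/Rnaseh2bΔIEC organoids. All libraries of both single knockouts lay below all WT libraries, and the double knockout overlapped WT. Klf4 was 1.48-fold lower in Rnaseh2bΔIEC (log2 difference -0.57, standard error 0.13, limma adjusted p = 0.00607) and 1.37-fold lower in Atg16l1ΔIEC organoids (-0.46, standard error 0.10, limma adjusted p = 0.00849). In Atg16l1/Rnaseh2bΔIEC organoids the difference was -0.32 (95% interval -0.54 to -0.10, limma adjusted p = 0.0517).

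Klf4 differed between pairs in WT and in the double knockout. WT libraries 3 and 4 averaged 10.37 against 10.02 for 1 and 2, within the same lane, and Atg16l1/Rnaseh2bΔIEC libraries 3 and 4 averaged 10.04 against 9.71. In both genotypes the higher pair had the female pattern of Xist, whereas the Atg16l1ΔIEC pairs differed by less (9.78 for the female and 9.69 for the male pattern). Among male-pattern pairs the WT mean of 10.02 stood above 9.63 in Rnaseh2bΔIEC, 9.69 in Atg16l1ΔIEC and 9.71 in Atg16l1/Rnaseh2bΔIEC organoids. That WT pair was in lane 1 and the other male-pattern pairs were in lane 2. The higher double-knockout pair was in lane 1 too, so lane and sex cannot be told apart in that genotype. With sex as a covariate the difference from WT was -0.44 in Rnaseh2bΔIEC (limma adjusted p = 0.00124) and -0.46 in Atg16l1ΔIEC organoids (limma adjusted p = 0.000183). With lane as a covariate the differences were -0.23 (adjusted p = 0.332) and -0.12 (adjusted p = 0.597). With the pairs correlated the adjusted p was 0.0358 in Rnaseh2bΔIEC and 0.0532 in Atg16l1ΔIEC organoids, and without Rnaseh2bΔIEC replicate 1 the former call was lost (-0.55, adjusted p = 0.0624).

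Klf5 (ENSMUSG00000005148), the crypt counterpart of Klf4, had values of 11.25, 11.28, 11.42 and 11.44 in WT, 11.38 and 11.37 in Rnaseh2bΔIEC, 11.32, 11.24, 11.33 and 11.31 in Atg16l1ΔIEC and 11.46, 11.45, 11.35 and 11.33 in Atg16l1/Rnaseh2bΔIEC organoids. The WT pairs spanned nearly the range of the other genotypes. Klf5 was not called in any comparison with 1 mean per genotype, and its largest difference between genotypes was 0.10 (95% interval -0.003 to 0.197, limma adjusted p = 0.137) between Atg16l1/Rnaseh2bΔIEC and Atg16l1ΔIEC organoids. That difference was 0.15 and called within lane 2 (limma adjusted p = 0.0212) and when lane was added as a covariate (limma adjusted p = 0.0392).

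Elf3 (ENSMUSG00000003051) lies on chromosome 1 from 135253575 to 135258568 and showed the clearest separation of all 10 factors. Its values were 12.67, 12.68, 12.60 and 12.64 in WT, 12.23 and 12.22 in Rnaseh2bΔIEC, 12.12, 12.10, 12.11 and 12.10 in Atg16l1ΔIEC and 12.56, 12.65, 12.45 and 12.50 in Atg16l1/Rnaseh2bΔIEC organoids. Every single-knockout library was below every WT and double-knockout library, while WT and the double knockout overlapped. Elf3 was 1.34-fold lower in Rnaseh2bΔIEC (log2 difference -0.42, standard error 0.05, limma adjusted p = 6.97e-05) and 1.45-fold lower in Atg16l1ΔIEC organoids (-0.54, standard error 0.04, limma adjusted p = 2.69e-06) than in WT.

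With both deletions Elf3 was near WT, at a difference of -0.11 (95% interval -0.19 to -0.03, limma adjusted p = 0.0641). It was 1.24-fold higher than in Rnaseh2bΔIEC (log2 difference 0.32, standard error 0.05, limma adjusted p = 0.000672) and 1.35-fold higher than in Atg16l1ΔIEC organoids (0.43, standard error 0.04, limma adjusted p = 1.96e-05). These 4 calls were also made with the pairs correlated, with lane as a covariate and with sex as a covariate. Within lane 1 the difference between Atg16l1/Rnaseh2bΔIEC and WT organoids was -0.17 and called (adjusted p = 0.0254). The antisense gene Gm26642 shares exons with Elf3 but had a mean of only -0.42.

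The sequence upstream of Elf3 and Klf4 is shown because both genes were lower in both single knockouts. It was taken from RefSeq promoter windows (GRCm38.p6), which held 5 of the 10 factors. For Elf3 the 154 bases at chr1:135258569-135258722 and for Klf4 the 250 bases at chr4:55532476-55532725 are printed, both genes lying on the minus strand. Upstream bases of Elf3 that belong to an annotated transcript are left out. Capitals mark matches on either strand to CACCC, a core bound by KLF proteins, in Elf3, and to the GC box GGGCGG in Klf4, which overlaps itself once.
Elf3: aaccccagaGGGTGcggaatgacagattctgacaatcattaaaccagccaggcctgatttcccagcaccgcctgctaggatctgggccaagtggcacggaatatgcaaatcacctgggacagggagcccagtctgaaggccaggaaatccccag
Klf4: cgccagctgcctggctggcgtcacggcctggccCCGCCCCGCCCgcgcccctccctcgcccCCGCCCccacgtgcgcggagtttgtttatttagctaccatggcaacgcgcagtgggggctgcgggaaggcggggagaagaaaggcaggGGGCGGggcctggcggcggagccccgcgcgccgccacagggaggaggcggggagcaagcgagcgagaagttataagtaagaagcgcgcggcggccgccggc
Among 32851 RefSeq windows of 250 bases upstream of a start, 52.0% held CACCC and 32.7% held GGGCGG. The Elf3 window held no GC box and the Klf4 window, with 4 GC boxes, held no CACCC.

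Gata4 (ENSMUSG00000021944), the proximal small intestinal factor, lies on chromosome 14 from 63198922 to 63271692. It had values of 12.52, 12.48, 12.41 and 12.45 in WT, 12.51 and 12.51 in Rnaseh2bΔIEC, 12.43, 12.41, 12.46 and 12.44 in Atg16l1ΔIEC and 12.32, 12.34, 12.48 and 12.49 in Atg16l1/Rnaseh2bΔIEC organoids. Its genotypes overlapped except that both Rnaseh2bΔIEC libraries were above all libraries with Atg16l1 deletion. Gata4 was not called in any comparison with 1 mean per genotype, and its difference from WT was 0.05 (95% interval -0.06 to 0.15) in Rnaseh2bΔIEC, -0.03 (-0.11 to 0.06) in Atg16l1ΔIEC and -0.06 (-0.14 to 0.03) in Atg16l1/Rnaseh2bΔIEC organoids. The Atg16l1/Rnaseh2bΔIEC pairs were apart (12.33 and 12.48). Within lane 2 that genotype was lower than Rnaseh2bΔIEC organoids by -0.18 (limma adjusted p = 0.013) and than Atg16l1ΔIEC organoids by -0.11 (limma adjusted p = 0.039), which rests on the lower pair alone. With lane as a covariate Gata4 was called in Rnaseh2bΔIEC against WT organoids (0.20, adjusted p = 0.021) and in the double knockout against Rnaseh2bΔIEC (-0.18, adjusted p = 0.00515) and Atg16l1ΔIEC organoids (-0.11, adjusted p = 0.0248).

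Gata6 (ENSMUSG00000005836) had values of 11.31, 11.33, 11.36 and 11.30 in WT, 11.45 and 11.49 in Rnaseh2bΔIEC, 11.27, 11.26, 11.46 and 11.45 in Atg16l1ΔIEC and 11.17, 11.19, 11.26 and 11.28 in Atg16l1/Rnaseh2bΔIEC organoids. The double knockout lay below all WT libraries, and the Atg16l1ΔIEC pairs were apart by pair (11.27 and 11.46). Its difference from WT was 0.15 (95% interval 0.02 to 0.27, limma adjusted p = 0.0749) in Rnaseh2bΔIEC and -0.10 (-0.203 to -0.003, limma adjusted p = 0.141) in Atg16l1/Rnaseh2bΔIEC organoids. Between these the fall was 1.19-fold (log2 difference -0.25, standard error 0.06, limma adjusted p = 0.00751), and within lane 2 it was -0.30 (adjusted p = 0.0255). That call was lost with pairs correlated (adjusted p = 0.0506) and without Rnaseh2bΔIEC replicate 2 (-0.23, adjusted p = 0.0943).

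Against Atg16l1ΔIEC organoids, Gata6 was lower by -0.14 in Atg16l1/Rnaseh2bΔIEC organoids (limma adjusted p = 0.0463). This call was at the edge of the threshold: it was lost with pairs correlated (adjusted p = 0.183), within lane 2 (-0.18, adjusted p = 0.0628) and on leaving out any 1 of 11 libraries, most of all Atg16l1ΔIEC replicate 3 or 4 (adjusted p = 0.144 in both). Gene 1010001N08Rik shares exons with Gata6 on the other strand and had a mean of 7.85. The library kit kept strand, but the strand setting of the counting is not given in the sources used here, so a contribution of its reads was not tested.

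Prdm1 (ENSMUSG00000038151) lies on chromosome 10 from 44437177 to 44528501. At its low level, values were 6.04, 6.14, 6.16 and 6.12 in WT, 6.42 and 6.49 in Rnaseh2bΔIEC, 6.32, 6.26, 6.41 and 6.38 in Atg16l1ΔIEC and 5.88, 5.98, 6.33 and 6.31 in Atg16l1/Rnaseh2bΔIEC organoids. Every single-knockout library was above every WT library, while the pairs of the double knockout fell on either side of WT (5.93 and 6.32). Prdm1 was 1.26-fold higher in Rnaseh2bΔIEC than in WT organoids (log2 difference 0.34, standard error 0.11, limma adjusted p = 0.0361). In Atg16l1ΔIEC organoids the difference was 0.23 (95% interval 0.04 to 0.42, limma adjusted p = 0.09). The Rnaseh2bΔIEC call was lost without any 1 of the 4 WT or 2 Rnaseh2bΔIEC libraries (adjusted p from 0.0537 to 0.205) and with pairs correlated (adjusted p = 0.145). When lane was added it was larger (0.73, adjusted p = 0.000569), and Prdm1 was then called in Atg16l1ΔIEC organoids too (0.62, adjusted p = 0.000703).

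Prdm1 was lower in Atg16l1/Rnaseh2bΔIEC than in Rnaseh2bΔIEC organoids (log2 difference -0.33, standard error 0.11, limma adjusted p = 0.0424). That call was lost on leaving out Rnaseh2bΔIEC replicate 1 (-0.36, adjusted p = 0.126) or 2 (-0.29, adjusted p = 0.246), Atg16l1/Rnaseh2bΔIEC replicate 1 (-0.24, adjusted p = 0.0714) or 2 (-0.28, adjusted p = 0.0859), WT replicate 2, 3 or 4 or Atg16l1ΔIEC replicate 1 or 4 (adjusted p from 0.0518 to 0.0541 in the last 5), and with pairs correlated (adjusted p = 0.164). The difference was larger and called within lane 2 (-0.52, adjusted p = 0.00549) and when lane was added (-0.52, adjusted p = 0.000474). Against Atg16l1ΔIEC organoids Prdm1 differed by -0.22 in the double knockout (limma adjusted p = 0.0898), and by -0.41 within lane 2 (adjusted p = 0.00649) and when lane was added (adjusted p = 0.000619), where it was called.

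Atg16l1 averaged 8.39 in the double knockout against 9.46 in WT organoids, so its transcript was only partly lost there. An interaction term tested whether a gene differed alike with Rnaseh2b deletion in organoids with and without Atg16l1 deletion. In it 35.1% of all genes tested and 5 of the 10 factors were called, 2 factors above 0 (17% of all genes) and 3 below (18.1%). With Rnaseh2b deletion Elf3 was lower in organoids without Atg16l1 deletion and higher in organoids with it, a difference of 0.85 (standard error 0.06, limma adjusted p = 2.58e-06). The WT libraries were in lane 1 and both Rnaseh2bΔIEC libraries in lane 2, so deletion and lane cannot be told apart from these libraries alone. For Klf4 the difference of effects was 0.71 (standard error 0.16, limma adjusted p = 0.00506), between -0.57 without Atg16l1 deletion and 0.14 (not called) with it. Hnf4g went the other way, higher without Atg16l1 deletion and lower with it, by -0.90 (standard error 0.14, limma adjusted p = 0.000543). Prdm1 (-0.55, standard error 0.14, limma adjusted p = 0.0089) and Gata6 (-0.28, standard error 0.07, limma adjusted p = 0.0102) had the same sign as Hnf4g.

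All but Gata6 were called with the pairs correlated (Gata6 adjusted p = 0.0527). Over all genes tested, the interaction was called for 1553 with the pairs correlated, 2580 with lane as a covariate and 4461 with sex, against 4499 with 1 mean per genotype. With lane as a covariate Elf3 (1.05), Prdm1 (-1.14), Gata6 (-0.42) and also Gata4 (-0.31, adjusted p = 0.0106, against -0.08 without lane) were called, while Hnf4g (-0.57, adjusted p = 0.0735) and Klf4 (0.21, adjusted p = 0.51) were not. With sex as a covariate the 5 were called. Without Rnaseh2bΔIEC replicate 2, Gata6 (-0.26, adjusted p = 0.0569) and Prdm1 (-0.52, adjusted p = 0.051) were not. The interaction rests on 2 Rnaseh2bΔIEC libraries of 1 pair, and averaging each pair to 1 value left 3 residual degrees of freedom and 0 factors called, Elf3 being closest (adjusted p = 0.0729). In that fit 0 of all 12802 genes tested were called in the interaction.

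**Figure D3:**
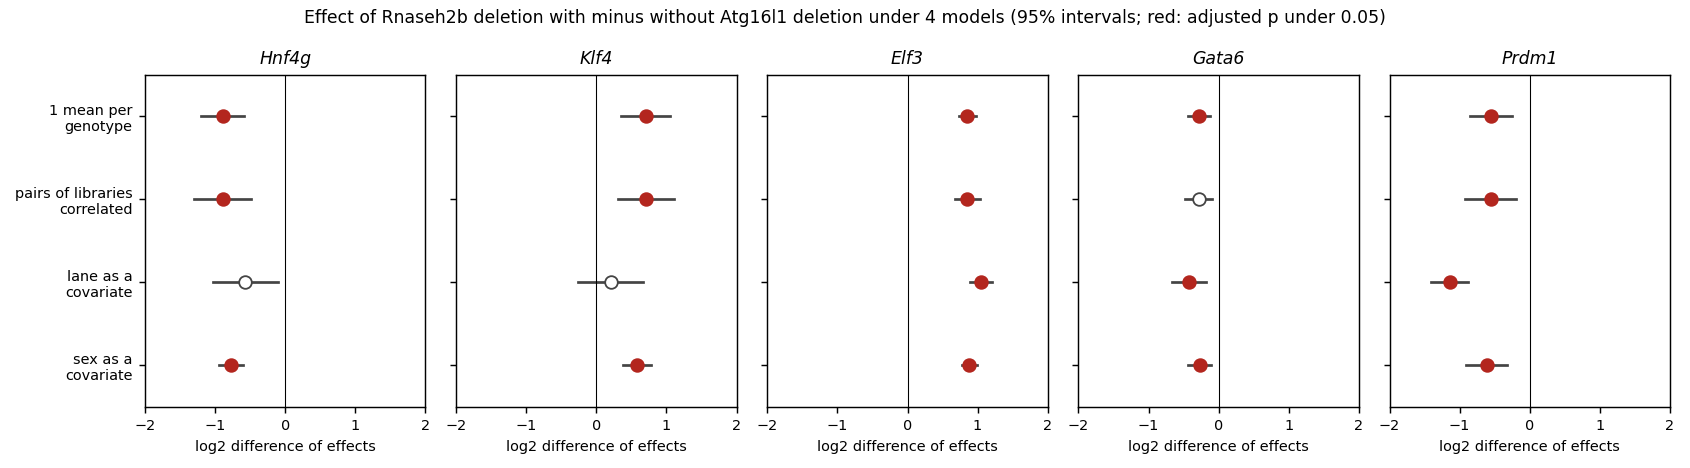
Interaction of the Rnaseh2b and Atg16l1 deletions on the log2 scale for the 5 factors called, with 95% intervals, from the fit with 1 mean per genotype and with pairs correlated, lane or sex added. Elf3 and Prdm1 are called in all 4, at 0.85 to 1.05 and -0.55 to -1.14, whereas the interval of Klf4 with lane added spans 0.

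Other transcription factors of endoderm and absorptive cells, a list of 32 genes of which 30 could be tested, gave its largest count of calls against WT in Rnaseh2bΔIEC organoids. In Rnaseh2bΔIEC against WT organoids 10 were higher and 3 lower (median 0.14), where 14.4% and 12.3% of all genes tested were called higher and lower. The lipid-metabolism factor Creb3l3 (1.35) and the vitamin D receptor Vdr (0.36) rose and the Wnt effector Tcf7l2 (-0.63) fell. In Atg16l1ΔIEC organoids 3 were higher and 4 lower (median 0.00, beside 8.73% and 10.4% of all genes), with falls of Tcf7l2 (-0.42) and the forkhead factors Foxa2 (-0.36) and Foxa3 (-0.34). In Atg16l1/Rnaseh2bΔIEC organoids 2 were lower than in WT (beside 8.01% of all genes), the bile acid receptor Nr1h4 (-0.29) and Rxra (-0.17), the shared partner of many nuclear receptors.

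Against Rnaseh2bΔIEC organoids, 3 of these 30 genes were higher and 10 lower with both deletions (median -0.09, beside 11.1% and 14.4% of all genes tested), led by Creb3l3 (-1.51), Nr1h4 (-0.51) and Rxra (-0.49). Against Atg16l1ΔIEC organoids 2 were higher and 5 lower (beside 12.6% and 12.5% of all genes), and the 3 largest differences were those of Foxa2 (0.53), Foxa3 (0.49) and Rxra (-0.43). With the pairs correlated 2 were higher and 1 lower in Rnaseh2bΔIEC against WT organoids, 1 and 0 in Atg16l1ΔIEC and 0 and 0 in Atg16l1/Rnaseh2bΔIEC against WT organoids, and 2 and 3 in the double knockout against Rnaseh2bΔIEC and 2 and 2 against Atg16l1ΔIEC organoids. Adding lane as a covariate made these counts, in the same order, 4 and 2, 2 and 5, 1 and 2, 5 and 11, and 5 and 3. Over all 12802 genes tested, the counts in this order were 428 and 300, 143 and 241, 36 and 49, 193 and 499, and 245 and 233 with the pairs correlated. With lane as a covariate they were 792 and 712, 777 and 809, 666 and 752, 1525 and 1941, and 2000 and 1976. They are also the background for the lists below under these models.

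Transcription factors of secretory and stem cells, 10 tested of 12 listed, were mostly not called against WT. Against WT 2 were lower in Rnaseh2bΔIEC, Myc (-0.45) and Gfi1 (-0.18), and 3 in Atg16l1ΔIEC organoids, Myc (-0.69), the stem cell factor Ascl2 (-0.52) and the enteroendocrine factor Neurog3 (-0.41), where 12.3% and 10.4% of all genes tested were called lower. In Atg16l1/Rnaseh2bΔIEC organoids 2 were higher than in WT, Neurog3 (0.52) and the goblet cell factor Spdef (0.27), where 8.1% of all genes were called higher. Against Rnaseh2bΔIEC organoids 5 were higher and 0 lower, where 11.1% of all genes were called higher. Against Atg16l1ΔIEC organoids 7 were higher and 0 lower, where 12.6% were called higher. Myc differed by 0.74 and 0.98 in these comparisons. With the pairs correlated the counts against WT were 0 in Rnaseh2bΔIEC, 2 in Atg16l1ΔIEC and 0 in Atg16l1/Rnaseh2bΔIEC organoids, and those of the double knockout against the single knockouts were 2 and 3.

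Goblet cell genes, 7 tested of 8 listed, included Spdef. In Rnaseh2bΔIEC organoids 3 were lower and 0 higher than in WT (median -0.43, beside 12.3% of all genes tested lower), the mucus protein genes Clca1 (-1.68), Fcgbp (-0.64) and Tff3 (-0.61). In Atg16l1ΔIEC organoids 4 were lower and 0 higher (median -0.56, beside 10.4% of all genes lower), among them Clca1 (-0.91), Zg16 (-0.84) and Tff3 (-0.61). In Atg16l1/Rnaseh2bΔIEC organoids 6 were higher than in Rnaseh2bΔIEC (11.1% of all genes) and 7 higher than in Atg16l1ΔIEC organoids (12.6%), while against WT Spdef was higher (0.27) and Clca1 lower (-0.50). With the pairs correlated 2 were lower in each single knockout, and in the double knockout 4 were higher than in Rnaseh2bΔIEC, 2 higher than in Atg16l1ΔIEC and 0 different from WT organoids at the threshold. Of the 20 enterocyte genes, 16 were higher in Rnaseh2bΔIEC than in WT organoids (7 with the pairs correlated, 4 with lane as a covariate), beside 14.4% of all genes tested. Against WT, 1 was higher in Atg16l1ΔIEC organoids (8.73%), and 1 was higher and 4 lower in Atg16l1/Rnaseh2bΔIEC organoids (8.1% and 8.01%). The medians were 0.63, 0.21 and -0.17, beside Hnf4g differences of 0.55, 0.22 and -0.13. These come from the same libraries, and whether the enterocyte genes depend on Hnf4g was not tested.

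**Figure D4:**
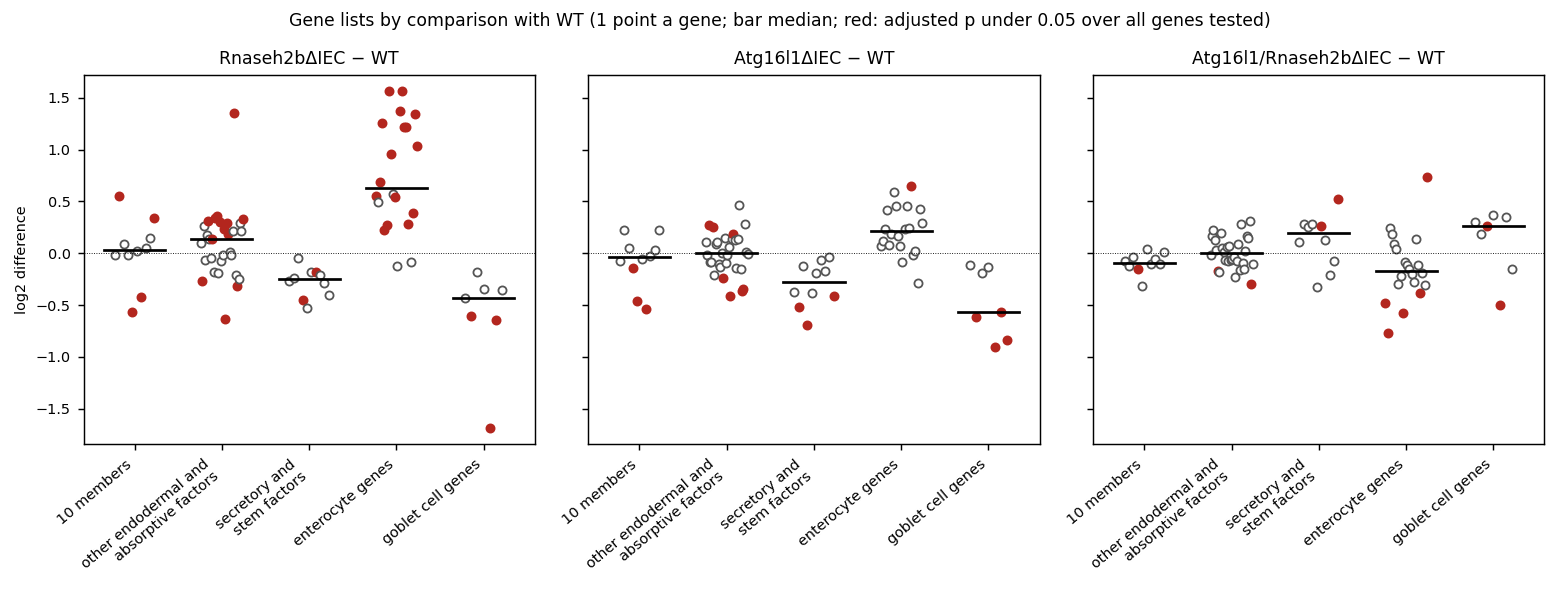
Log2 difference from WT of each gene of 4 lists beside the 10 factors, 1 point a gene and the median as a bar, filled red where the limma adjusted p was under 0.05. The median of the enterocyte genes is 0.63 in Rnaseh2bΔIEC organoids, and the medians of the goblet cell genes in the single knockouts are -0.43 and -0.56.

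Regional markers were compared because GATA4 and CDX2 set position along the gut. Of 7 genes of the proximal small intestine, 4 were higher and 1 lower in Rnaseh2bΔIEC than in WT organoids, beside 14.4% and 12.3% of all genes tested. Gata4 differed there by 0.05 (0.20 and called with lane as a covariate). The higher genes were led by Rbp2 (1.64) and Lct (1.56), a retinol carrier and lactase, and the lower gene was Cybrd1 (-0.83). Of 5 ileal genes tested, 3 were higher, Slc51a (0.94), Cubn (0.90) and Slc51b (0.60), which take part in bile acid export and vitamin uptake. Slc10a2 (-0.26) and Fgf15 (0.08) were not called, and Fabp6, at most 0.46 in any library, was too low to be tested. Correlating the pairs left 3 proximal genes and 1 ileal gene called, and with lane as a covariate 1 of each. Neither list had more than 1 gene called in Atg16l1ΔIEC organoids. Against WT, 0 proximal genes were called in Atg16l1/Rnaseh2bΔIEC organoids (0 with the pairs correlated, 2 with lane as a covariate), and 2 ileal genes were lower, Cubn (-0.72) and Slc51b (-0.43), of which 0 were called with the pairs correlated. Of all genes tested, 16.1% were called in that comparison and 8.01% were lower.

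Of 10 gastric genes, 4 could be tested. In the double knockout 2 were higher than in WT, 2 higher than in Rnaseh2bΔIEC (beside 11.1% of all genes tested) and 3 higher than in Atg16l1ΔIEC organoids (12.6%). Against WT, Tff1 (0.535) and Gkn3 (0.174) were not called. Anxa10 (1.02) and the protease gene Ctse (0.64) were higher in Atg16l1/Rnaseh2bΔIEC than in WT organoids (beside 8.1% of all genes tested), where Cdx2 was lower. Neither was called in Atg16l1ΔIEC organoids, where Anxa10 differed by -0.45, Ctse by -0.09 and Cdx2 was lower as well. Whether these genes depend on Cdx2 was not tested. In the double knockout against WT 0 were called once the pairs were correlated, where 85 of all genes tested were called. The genes of the suckling enterocyte, which PRDM1 is known for, gave 3 of 4 higher in Rnaseh2bΔIEC than in WT organoids, Lct (1.56), Ass1 (0.75) and Fcgrt (0.66). In the same comparison 2 of 3 adult enterocyte genes, Arg2 (1.23) and Treh (1.22), were higher too, beside 14.4% of all genes tested. Of each list 2 were called with the pairs correlated, and with lane as a covariate 2 and 0. Lct stands in several of these lists.

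The genes whose values followed each factor most closely over the 14 libraries are given as a description, since the libraries share genotypes, pairs and lanes. Hnf4g had the most, 310 genes at a Pearson r over 0.9, among the closest Slc25a51 (0.987). Elf3 had 58, led by Tbc1d30 (0.965) and Asxl2 (0.957), and Klf4 had 56, led by Bmp2 (0.97), a ligand of villus differentiation, and Ifngr1 (0.951). Gata6 had 29 (Osbpl7 0.946, Rnf167 0.941), Gata4 had 9 (Fam189b 0.94, Tle2 0.922) and Prdm1 had 8 (Hnrnpdl 0.956, Rhpn2 0.941). The 4 other factors had at most 2, with closest genes Clpx (0.909) and Diaph1 (0.905) for Hnf4a, Pcyt1a (0.925) and Camk2n1 (0.903) for Cdx2, Slain2 (0.938) and Lrpprc (0.854) for Klf5, and Anapc16 (0.895) and Tbc1d1 (0.867) for Cdx1.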

How the data were processed

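The authors deposited 1 table of normalised log2 expression values for 14 libraries, from stranded mRNA libraries trimmed with cutadapt, aligned to GRCm38 with TopHat2, counted with HTSeq and processed with DESeq2. Versions, the transformation and the read depth are not given in the sources used here. The median SD over all 14 libraries was 0.002 for genes below -1, 0.151 between 6 and 7, where Prdm1 lies, and 0.086 between 11 and 13, and no counting interval could be given. Gene symbols and coordinates came from GENCODE M21 (99.7% of identifiers matched).

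Groups came from the sample labels. The 12802 genes whose mean reached 3.32 were fitted with limma 3.58.1 in R 4.3.3, with 1 mean per genotype over all libraries, a mean trend in the variance and Benjamini-Hochberg adjustment. The script was tested on simulated data. The tested effects were differences between genotypes and the interaction of both deletions. The 10 factors and all gene lists were chosen with earlier results of these data known. List genes named were those called with the largest differences, up to 3 per list and comparison. Likeness was Pearson's r over the 14 libraries. Some results for single genes are not reported here. Models with pairs correlated, pair averages, lane or sex were compared, of which the sex models and the list counts under all these models were chosen after the data had been seen. Exact permutation tests were two-sided, with smallest p-values of 0.0286 for 4 against 4 and 0.133 for 4 against 2 libraries.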

Additional observations from a re-analysis of the deposited data

Results flagged for a closer look

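Of 30 groups of 4 libraries, 10 factors in 3 genotypes, 2 held a library far from the others, where chance alone gives about 1 in 20. Hnf4a was 14.63 in Atg16l1/Rnaseh2bΔIEC replicate 3, below the other 3 libraries (14.67 to 14.68). Klf4 was 9.87 in Atg16l1ΔIEC replicate 2, above the other 3 (9.69 to 9.70).

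The effect of Rnaseh2b deletion differed between organoids with and without Atg16l1 deletion, by limma's interaction test, for Hnf4g (-0.90), Klf4 (0.71), Elf3 (0.85), Gata6 (-0.28) and Prdm1 (-0.55) on the log2 scale. Each rests on the same 2 Rnaseh2bΔIEC libraries.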

How the results depend on the processing

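With pseudocounts of 0.5, 1 or 5 added on the linear scale, or with a minimum mean of 50, no value of the 10 factors changed direction or side of the threshold. Over all alternatives other than leaving out 1 library, 28 of 1080 values changed direction, none of them called. The cause of the changes below was not tested.

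Averaging each pair left 0 factors called against WT in Rnaseh2bΔIEC, Atg16l1ΔIEC and Atg16l1/Rnaseh2bΔIEC organoids, 0 in the double knockout against either single knockout and 0 in the interaction, with 3 residual degrees of freedom. With the pairs correlated, 1 factor was called in Atg16l1ΔIEC and 0 in Atg16l1/Rnaseh2bΔIEC against WT organoids (384 and 85 of all 12802 genes tested). In the double knockout 2 and 1 were called against Rnaseh2bΔIEC and Atg16l1ΔIEC organoids (692 and 478 genes). With 1 mean per genotype these counts over all genes were 2450, 2063, 3262 and 3218, and 872 between the single knockouts. Counts over all genes are given in brackets below. With sex and correlated pairs, added after seeing the data, the double knockout gave 0 against WT (348) and 2 against Rnaseh2bΔIEC organoids (604), and with sex alone 3 against WT (2875). The double knockout against WT gave 2 calls without the filter on low values (1673 of 18781 genes), 2 without the mean trend (2006), 3 with lane as a covariate (1418) and 3 within lane 1 (1311). Against Rnaseh2bΔIEC organoids it gave 3 with total scaling (3681) and 3 when only the libraries compared were fitted (2456), and against Atg16l1ΔIEC organoids 5 with lane as a covariate (3976). Between the single knockouts 3 were called with lane as a covariate (1622).

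With lane as a covariate, Cdx1 became -0.17 in Rnaseh2bΔIEC and -0.21 in Atg16l1ΔIEC against WT organoids and 0.21 in the interaction, Klf5 became -0.086 in Rnaseh2bΔIEC against WT organoids, Gata4 became 0.13 in Atg16l1ΔIEC against WT organoids and Cdx2 became -0.017 in the interaction. With lane as a covariate and likewise within a lane, in the double knockout, Klf5 (-0.009) and Gata4 (0.021) against WT, Cdx1 against Rnaseh2bΔIEC (0.001) and Hnf4a (0.007), Cdx1 (0.043) and Klf4 (-0.027) against Atg16l1ΔIEC organoids changed sign. With total scaling Klf5 became -0.014 in Rnaseh2bΔIEC against WT organoids, and Hnf4a 0.014 and Cdx2 0.009 in the double knockout against Atg16l1ΔIEC organoids. With sex, with or without correlated pairs, Cdx1 (-0.002) and Klf4 (0.018) changed sign between the single knockouts.

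The replicate numbers do not pair the samples: same-numbered libraries correlated between -0.414 and 0.458 in their deviations, and 3 of 14 libraries correlated best with their own number. With the replicate number as a block, 3 factors were called in the double knockout against WT organoids (2125 of all genes tested) and 1 between the single knockouts (424). The block turned Cdx2 to 0.002 in Rnaseh2bΔIEC against WT organoids, Cdx1 to -0.018 between the single knockouts and Cdx2 to -0.012 in the interaction.

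Leaving out 1 library at a time gave 2 to 4 factors called in Rnaseh2bΔIEC, 3 to 4 in Atg16l1ΔIEC and 1 to 2 in Atg16l1/Rnaseh2bΔIEC against WT organoids, 2 to 5 in the double knockout against Rnaseh2bΔIEC and 1 to 4 against Atg16l1ΔIEC organoids, 0 to 1 between the single knockouts and 3 to 6 in the interaction. Where 1 Rnaseh2bΔIEC library was left, it was assumed to vary like the other genotypes. Of all genes tested, leaving out a library of another genotype called 2668 to 3832 in Rnaseh2bΔIEC against WT organoids. In Atg16l1ΔIEC it called 1659 to 2870 and in Atg16l1/Rnaseh2bΔIEC organoids 1001 to 2074 against WT. For the double knockout it gave 2623 to 3288 against Rnaseh2bΔIEC and 1827 to 3470 against Atg16l1ΔIEC organoids. Between the single knockouts it gave 504 to 1105, and in the interaction 3877 to 4714. Values that changed sign were Klf5 in Rnaseh2bΔIEC (-0.011 to 0.055), Gata6 in Atg16l1ΔIEC (-0.000 to 0.066) and Cdx1 (-0.107 to 0.009) and Prdm1 (-0.058 to 0.094) in Atg16l1/Rnaseh2bΔIEC against WT organoids, Hnf4a (-0.009 to 0.006) and Cdx2 (-0.023 to 0.009) in the double knockout against Atg16l1ΔIEC organoids, Cdx1 between the single knockouts (-0.048 to 0.13) and Cdx2 in the interaction (-0.007 to 0.026).

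Total scaling moved the balance of all genes called. Higher and lower calls went from 1848 and 1576 to 1388 and 2117 in Rnaseh2bΔIEC against WT organoids, from 1417 and 1845 to 2377 and 1304 in the double knockout against Rnaseh2bΔIEC organoids, from 556 and 316 to 418 and 523 between the single knockouts and from 2180 and 2319 to 2933 and 1778 in the interaction. For the double knockout, total scaling also moved them from 1616 and 1602 to 1897 and 1335 against Atg16l1ΔIEC and from 1037 and 1026 to 1191 and 837 against WT organoids. Upper quartile scaling moved the balance from 1117 and 1333 to 1356 and 1180 in Atg16l1ΔIEC against WT organoids. In the double knockout it moved the balance from 1037 and 1026 to 1236 and 888 against WT and from 1417 and 1845 to 1668 and 1668 against Rnaseh2bΔIEC organoids.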
